A study of Rickenella mellea with 14 samples.

Results

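Of the 15477 genes in the deposited expression matrix of the mushroom Rickenella mellea, 198 (1.28%) peaked in the primordium. They were chosen from the measured values. On the log2 scale, the mean of the 3 primordium libraries had to be at least 2 above the mean of each of the 4 other groups, a 4-fold difference. In addition, each primordium value had to lie at least 1, a 2-fold difference, above every value of the 11 other libraries. The level of these genes in primordium relative to the other groups is therefore a description and carries no test. The number depended on the scaling. The TMM factors, which correct a library's total for its composition, were 0.573, 0.638 and 0.786 in primordium replicates 1, 2 and 3, against 0.896 to 1.35 in the other libraries, and with library total alone the rule found 74 genes, all of them among the 198.

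Purified mRNA was sequenced from 14 libraries of the strain SZMC22713. The primordium group held replicate 2, from stage 1 primordia of about 1 mm without a visible cap initial, and replicates 1 and 3, from stage 2 primordia of 2 to 3 mm with a small cap initial. The other groups were vegetative mycelium (n = 3), young fruiting bodies of 5 to 15 mm (n = 3), and mature fruiting bodies of 20 to 32 mm, separated into cap (n = 3) and stipe (n = 2). Mycelium came from agar cultures and was sequenced on a flow cell of its own, while every other sample was gathered in the field and sequenced on another flow cell, so that in any comparison with mycelium the stage, the growth condition and the flow cell cannot be told apart. The labels give 1 strain for all libraries and do not say from how many individuals the field samples came. The p-values below therefore rest on the spread among these libraries, which may be technical.

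A primordium is the compact hyphal aggregate from which a mushroom grows. Hyphae of the vegetative mycelium gather into knots, the knots become primordia, and cap and stipe tissues differentiate inside them before the young fruiting body enlarges, largely by cell expansion in many species. In other mushroom-forming fungi this stage is known for genes of cell wall remodelling, hydrophobins, lectins and transcription factors. Product names are not attached to the gene models in the files. Each gene is therefore called by its model number, without a function.

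Library totals ran from 13563533 to 54625100 reads, and primordium had 14282096 to 18419411 reads. Levels are given as RPKM after TMM scaling, taken from the deposited matrix, and are thus per length of gene model and comparable between genes. The peaking genes were mostly abundant in primordium. The selection used the primordium levels, so high levels and read shares there are partly fixed by it. Their primordium level had a median of 270.3 RPKM, against a median of 8.48 RPKM over all genes of the matrix. Of them, 158 (79.8%, against 11.6% of all genes) stood above 100 RPKM and 46 (23.2%, against 1.19%) above 1000 RPKM. Under 10 RPKM were 5 (2.53%, against 52.7%). In every primordium library each of the 198 genes had at least 7 reads, and the median over genes and libraries was 5385.5 reads. They took 18.3%, 20.3% and 13.7% of all reads in primordium replicates 1, 2 and 3, against 1.92% to 3.88% in the 11 other libraries. The 10 most abundant of them took 4.08% to 6.69% of the reads in primordium.

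These genes were also detected elsewhere, as the filter of the matrix requires. The matrix holds only genes with at least 5 reads in at least 4 libraries, and primordium has 3. Reads were found in all 14 libraries for 193 of the 198 (97.5%, against 76.9% of all genes). In every other library 3 (1.52%) stayed under 1 RPKM, near the 1.6% of all genes, and 30 (15.2%, against 28.3%) stayed under 10 RPKM. The highest mean among the other groups had a median of 37.6 RPKM over the 198 genes. The excess of primordium over the next highest group had a median of 6.42-fold. It was 4 to 8-fold for 126 genes, 8 to 16-fold for 43 and at least 16-fold for 29, of which 9 exceeded 32-fold.

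**Figure D1:**
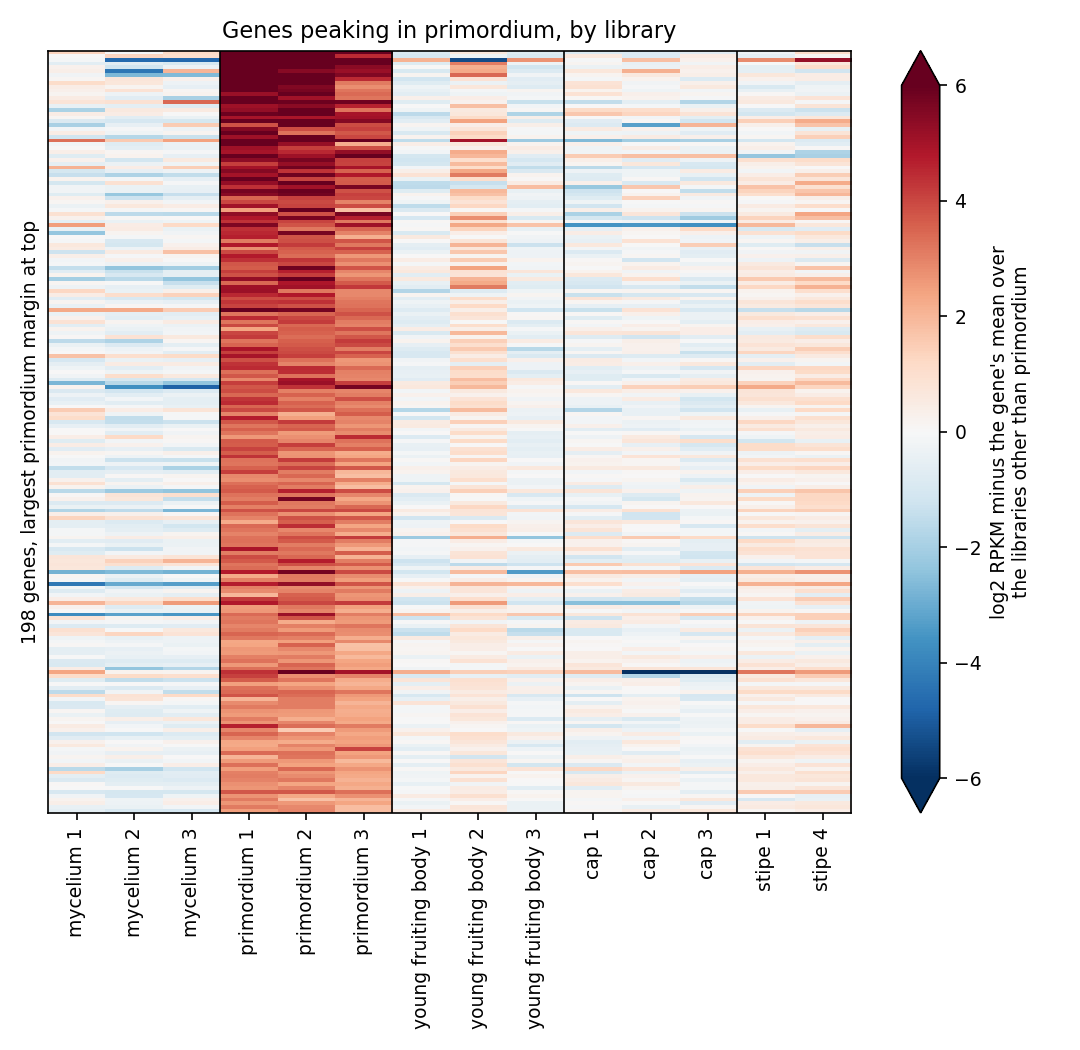
The 198 genes peaking in primordium (rows, sorted by their excess over the next highest group) in 14 libraries (columns, by stage), coloured by log2 RPKM minus each gene's mean over the 11 libraries other than primordium. The primordium columns are red throughout by selection, and among the remaining columns young fruiting body replicate 2 is the one that most often shows a raised level.

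Gene model 779710 had the highest primordium level. Its levels were 477, 337 and 375 RPKM in mycelium, 12044, 16918 and 7311 RPKM in primordium, 1313, 2468 and 1400.5 RPKM in young fruiting bodies, 809, 722 and 785 RPKM in caps, and 2148 and 1459.9 RPKM in stipes. The primordium values stood apart from all others by selection, mycelium was lowest, and the stipes lay in the range of the young fruiting bodies. Gene model 787849 came next, with 857, 267 and 676 RPKM in mycelium, 15419, 10310.5 and 5020.2 RPKM in primordium, 386, 2271 and 226 RPKM in young fruiting bodies, 863, 559 and 1559 RPKM in caps, and 343 and 215 RPKM in stipes. Outside primordium its highest level was in young fruiting body replicate 2, several times above the other 2 libraries of that group.

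The largest excess over the next group belonged to gene model 785425, at 151-fold. It had 17.9, 7.04 and 16.2 RPKM in mycelium, 6209, 2068 and 550.4 RPKM in primordium, 3.88, 11.1 and 4.36 RPKM in young fruiting bodies, 4.03, 4.06 and 4.45 RPKM in caps, and 5.84 and 15.2 RPKM in stipes. Its primordium libraries themselves spanned 11.3-fold. Gene model 770970 followed with an excess of 149-fold, at 1.79, 4.52 and 3.82 RPKM in mycelium, 2289.6, 1085 and 40.7 RPKM in primordium, 0.927, 1.51 and 0.982 RPKM in young fruiting bodies, 2.83, 1.02 and 2.58 RPKM in caps, and 1.23 and 2.05 RPKM in stipes. Primordium replicate 3 was far below the other primordium libraries for this gene, a spread of 56.2-fold within the group. It was still above every other library, as the rule requires.

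At the edge of the selection, gene models 41210 and 771210 were just inside, with primordium means 2.015 and 2.017 (log2) above the next group. Gene models 778732 and 785949 were just outside, at 1.995 and 1.981. In all, 129 genes kept the 2-fold gap but not the 4-fold excess. Conversely, 148 genes had the 4-fold excess without the gap. The smallest gaps inside were 1.008 and 1.022, and the largest outside 0.993 and 0.984. Of the 198 genes, 4 (2.02%) had fewer than 90% of their reads unique to 1 gene model, against 3.29% of all genes. For 1 of these, gene model 833106, named after its value was seen, no read was unique, so its level is uncertain.

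**Figure D2:**
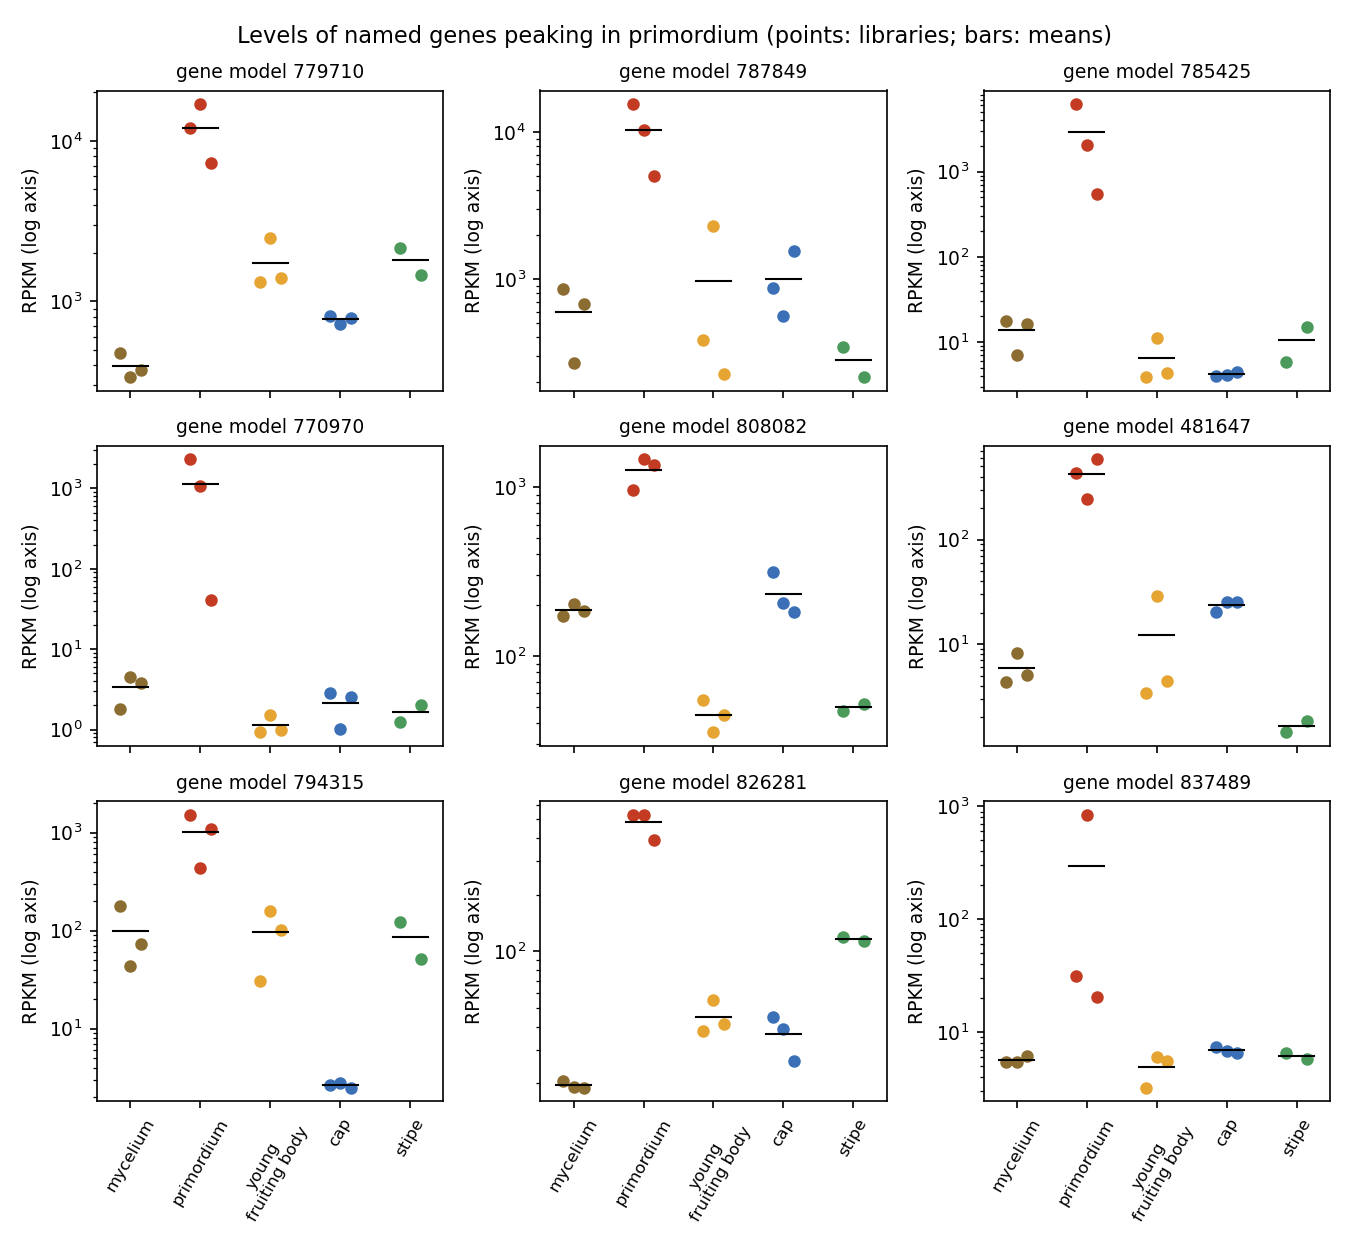
RPKM (log axis) of 9 named genes peaking in primordium in each library, grouped by stage, with points for libraries and bars for group means. All primordium points lie above all other points by selection, while the order of the other groups differs from gene to gene.

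The genes varied within primordium by a median of 2.17-fold between the highest and the lowest library, against 2.23-fold over all genes. A spread under 2-fold was found for 83 of them (41.9%, against 43.7% of all genes) and a spread of at least 4-fold for 34 (17.2%, against 30.5%). The gap rule limits low primordium values, so a narrower spread is partly fixed by the selection. Primordium replicate 3 was the lowest of the 3 libraries for 136 of the 198 genes (68.7%, against 33.7% of all genes). Its values lay at a median log2 difference of -0.65 from the mean of the other 2 primordium libraries, against -0.04 over all genes. Summed over the 198 genes, the level was 232878 RPKM in replicate 1, 219626 RPKM in replicate 2 and 119950.3 RPKM in replicate 3. Replicates 1 and 3 are of stage 2, so the low library and a high one share a stage. Without replicate 3 the rule would find 362 genes, including 196 of the 198.

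The rule set no direction for the difference between the primordium stages, but it limited how far either stage could lie below the other. Stage 1 had 1 library, so the stage and that library cannot be told apart, and the p-values take its spread from the other groups. In a fit of all libraries with 6 groups (edgeR quasi-likelihood test, called at an adjusted p under 0.05 and at least 2-fold), 3 of the 198 genes were higher in stage 1 than in stage 2 and 0 were lower, and 195 were not called. Over all 15874 genes tested, 1.22% were called higher and 1.43% lower in stage 1, so the share of the peaking genes, 1.52% higher, was near that of all genes. At an unadjusted p under 0.05 there were 20 of the 198 genes (10.1%), against 17.3% of all genes. DESeq2 called 6 higher (3.17% of the 189 genes with an adjusted p), where 2.57% of all genes were called, and 1 lower (0.529%), where 3.98% of all genes were called.

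Gene model 837489 was the clearest of these, with 845 RPKM in the stage 1 library, replicate 2, against 31.6 and 20.3 RPKM in the stage 2 libraries, and the log2 difference with its SE was 5.03 ± 0.37 (edgeR, adjusted p = 0.00025). In the 11 other libraries its level was between 3.22 and 7.43 RPKM. Gene model 732079 had 204 RPKM in stage 1, against 53.4 and 15.9 RPKM in stage 2 (log2 difference 2.56 ± 0.55, edgeR adjusted p = 0.0394), and this call was lost with only field-collected libraries in the fit (adjusted p = 0.0695). The third, gene model 822016, had 1969 RPKM in stage 1, against 589 and 469 RPKM in stage 2 (log2 difference 1.90 ± 0.41, edgeR adjusted p = 0.0394). Stage 2 replicate 3 was the lowest primordium library for all 3 of these genes. Leaving out a stage 2 library sets 1 library against 1, with the spread again taken from the other groups. The median log2 difference of the 198 genes was 0.15 with all libraries, against -0.01 for all genes. Without replicate 3 it was 0.01, against 0 for all genes, and without replicate 1 it was 0.58, against 0.

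Outside primordium, the stipe was most often the group with the next highest level. It ranked highest among the 4 other groups for 103 of the 198 genes (52.0%), against 28.9% of all genes. The young fruiting body ranked highest for 35 (17.7%, against 20.6% of all genes), mycelium for 33 (16.7%, against 28.4%) and the cap for 27 (13.6%, against 22%). At the low end, mycelium was lowest for 93 genes (47.0%, against 36.4% of all genes) and the cap for 56 (28.3%, against 19.2%). The count of genes with stipe next highest ran from 93 to 121 when each of the 11 libraries was left out in turn. The excess of primordium over the next group had medians of 7.19-fold over mycelium, 6.42-fold over young fruiting body, 6.35-fold over cap and 6.24-fold over stipe. The rule sets the same floor of 4-fold for each gene, so the likeness of these medians is partly fixed by the selection. Since whole tissues were ground, fewer cells of a type and less RNA per cell cannot be told apart in any of these levels.

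Within the young fruiting bodies, 1 library departed from the others in these genes. Young fruiting body replicate 2 was the highest of its group for 168 of the 198 genes (84.8%), against 33.3% of all genes. It was at least 2-fold above both other libraries for 72 (36.4%, against 6.58% of all genes) and at least 4-fold for 23 (11.6%, against 1.93%). It was below both for 11 (5.56%, against 39.8%). The median log2 difference from the mean of replicates 1 and 3 was 0.86 for the peaking genes, against -0.05 over all genes. Summed over the 198 genes, the level was 12534, 30386 and 13082 RPKM in young fruiting body replicates 1, 2 and 3. The rule itself places each of these sums below the 119950.3 RPKM of the lowest primordium library.

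Of the 11 libraries other than primordium, young fruiting body replicate 2 was the highest for 87 of the 198 genes (43.9%, against 9.67% of all genes), followed by stipe replicate 4 for 36 (18.2%, against 12.5%) and stipe replicate 1 for 24 (12.1%, against 6.76%). Across the 198 genes, its mean Spearman correlation with the primordium libraries was 0.843, against 0.749 and 0.733 for replicates 1 and 3. Over all genes these values were 0.852, 0.805 and 0.799. Stipe replicates 1 and 4 had 0.784 and 0.812 across the 198 genes, and 0.85 and 0.847 over all genes. Mycelium and cap libraries had 0.717 to 0.752 across the 198 genes, and 0.705 to 0.781 over all genes. These correlations are descriptions across genes, which are not independent replicates. The total of young fruiting body replicate 2, 32873948 reads, was the lowest of its group, against 44619762 and 40878997 reads in replicates 1 and 3. The TMM factor of replicate 2 was 0.896, against 0.953 and 1.07 there. The part of the read total in the result was not tested. With scaling by library total alone, without TMM factors, replicate 2 was the highest of its group for 153 of the 198 genes (77.3%), against 25.6% of all genes.

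**Figure D3:**
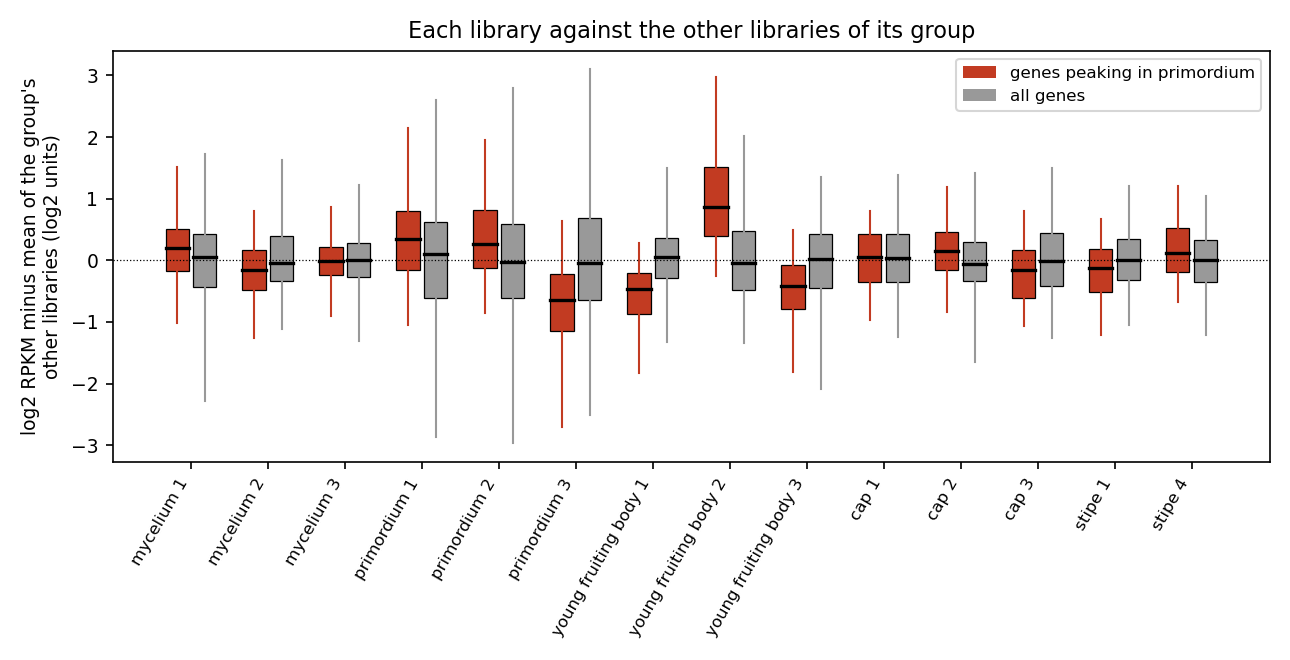
Log2 RPKM of each library minus the mean of the other libraries of its group, for the 198 genes peaking in primordium (red, left of each pair) and for all genes (grey). Boxes span the 25th to the 75th percentile over genes, lines the 5th to the 95th, and black bars are medians. The peaking genes sit above 0 in young fruiting body replicate 2 (median 0.859) and below 0 in primordium replicate 3 (median -0.646), where the median of all genes is near 0.

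The rule set no direction for differences among the other 4 groups, although it held all of them at least 4-fold below primordium. All 198 genes passed the low-count filter of edgeR and were tested among 15559 genes. In young fruiting body against mycelium, 35 of the 198 genes (17.7%) were higher in young fruiting body, where 15.7% of all genes were called, and 10 (5.05%) were lower, where 10.8% of all genes were called (edgeR, adjusted p under 0.05 and at least 2-fold). The median log2 difference was 0.49 for the peaking genes, against 0.17 for all genes. Without young fruiting body replicate 2 the count was 18 higher (9.09%, against 14.8% of all genes) and 19 lower (9.6%, against 9.19%). The median was then 0.01, against 0.14 for all genes. Without replicate 1 the count was 45 higher (22.7%, against 13.5%) and 4 lower (2.02%, against 7.8%). Without replicate 3 it was 32 higher (16.2%, against 11.6%) and 5 lower (2.53%, against 9.69%). With library total in place of TMM it was 18 higher (9.09%, against 9.69%) and 16 lower (8.08%, against 13.7%), and the median of all genes moved to -0.14. With DESeq2 size factors it was 20 higher (10.1%, against 11.8%) and 14 lower (7.07%, against 12.7%), and the median of all genes moved to -0.02. The balance between higher and lower calls thus moved with each young fruiting body library and with the scaling, and the shares over all genes moved too. The count of 45 calls (22.7%, against 26.5% of all genes) was 27 without mycelium replicate 2 (13.6%, against 19.2%) and 28 without mycelium replicate 3 (14.1%, against 20.8%).

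Gene model 377296 had the smallest adjusted p among the genes that were higher, at 12, 27.5 and 26.6 RPKM in young fruiting bodies, against 0.339, 0.813 and 0.682 RPKM in mycelium. The groups did not overlap, and the log2 difference, with its SE, was 5.19 ± 0.53 (edgeR, adjusted p = 3.32e-05). In primordium it stood at 177, 255 and 91.7 RPKM. Gene model 822016 had 196, 128 and 170 RPKM in young fruiting bodies, against 4.13, 5.95 and 4.99 RPKM in mycelium, a log2 difference of 5.04 ± 0.56 (edgeR adjusted p = 5.87e-05). In the mature tissues, gene model 377296 averaged 9.29 ± 3.42 RPKM in caps (SD, n = 3) and 30.8 ± 3.57 RPKM in stipes (SD, n = 2). Gene model 822016 averaged 115 ± 34.2 RPKM in caps and 147 ± 6.67 RPKM in stipes. Every library after primordium was above every mycelium library for these genes.

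Other genes had a young fruiting body level under that of mycelium. Gene model 808082 had 54.4, 35.2 and 44.7 RPKM in young fruiting bodies, against 172, 204 and 185 RPKM in mycelium, a log2 difference of -2.06 ± 0.28 (edgeR adjusted p = 0.000235), while primordium stood at 964, 1459 and 1347 RPKM. Gene model 901480 had 3.04, 3.72 and 5.8 RPKM in young fruiting bodies, against 17.1, 12.7 and 11.7 RPKM in mycelium, a log2 difference of -1.73 ± 0.34 (edgeR adjusted p = 0.00226). Its primordium values were 53.8, 95 and 90.9 RPKM.

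The next comparisons set the mature tissues against the young fruiting body, which was taken whole, so that the part of the fruiting body and its age cannot be told apart. In cap against young fruiting body, 1 of the 198 genes was higher and 1 lower (0.505% each), where 1.34% of all genes were called higher and 1.77% lower (edgeR). Gene model 808082 was the higher one, at 314, 205 and 182 RPKM in caps, against 54.4, 35.2 and 44.7 RPKM in young fruiting bodies (log2 difference 2.38 ± 0.29, adjusted p = 0.00148). Gene model 794315 was the lower one, at 2.64, 2.77 and 2.5 RPKM in caps, against 30.3, 159.6 and 102 RPKM in young fruiting bodies (log2 difference -5.21 ± 0.77, edgeR adjusted p = 0.00438). The median log2 difference was -0.27 for the peaking genes, against -0.02 for all genes. It was 0.08 without young fruiting body replicate 2, where 5 genes were higher (2.53%, against 0.648% of all genes) and 1 lower (0.505%, against 0.81%). Without young fruiting body replicate 1 the count was 1 higher (0.505%, against 0.544%) and 3 lower (1.52%, against 0.797%). Without replicate 3 it was 1 higher (0.505%, against 1.22%) and 5 lower (2.53%, against 1.52%). DESeq2 called 2 higher (1.03% of the 194 genes with an adjusted p), where 4.1% of all genes were called, and 6 lower (3.09%), where 3.32% of all genes were called. With library total alone the median was also 0.08, and the median of all genes moved to 0.31.

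In stipe against young fruiting body, 3 of the 198 genes (1.52%) were higher, where 1.61% of all genes were called, and 0 were lower, where 5.48% of all genes were called. At an unadjusted p under 0.05 there were 27 of the 198 genes in either direction (13.6%), against 23% of all genes. DESeq2 called 8 higher (4.17% of the 192 genes with an adjusted p), where 4.89% of all genes were called, and 4 lower (2.08%), where 8.48% of all genes were called. Gene model 826281 was higher at 119 and 113 RPKM in stipes, against 37.8, 55.2 and 41.4 RPKM in young fruiting bodies (log2 difference 1.38 ± 0.27, edgeR adjusted p = 0.0131). Gene model 898602 was higher at 46.2 and 86.5 RPKM in stipes, against 16.1, 22.5 and 19.6 RPKM in young fruiting bodies (log2 difference 1.78 ± 0.41, edgeR adjusted p = 0.0234). Groups did not overlap for either gene. The call of 826281 was lost without young fruiting body replicate 1, stipe replicate 1 or stipe replicate 4 (edgeR adjusted p 0.0648, 0.0688 and 0.162), where its log2 difference was 1.27, 1.37 and 1.41. The call of 898602 was lost without young fruiting body replicate 1 or 3 or stipe replicate 4 (edgeR adjusted p 0.0998, 0.0544 and 0.333), where its log2 difference was 1.66, 1.81 and 1.26. Leaving out a stipe library leaves 1, whose spread is taken from the other groups. Without young fruiting body replicate 2, 15 genes were higher (7.58%, against 1.7% of all genes) and 0 lower (against 5.92%), and the median log2 difference was 0.71, against 0.27 with it. With library total alone the median was 0.43, and that of all genes moved to 0.14. Without stipe replicate 4 edgeR called 0 of all genes tested, the 198 included, of which 8 had an unadjusted p under 0.05. Without stipe replicate 1 the median log2 difference was 0.32, against 0 for all genes. Without young fruiting body replicate 1 the count was 0 higher (against 0.175% of all genes) and 1 lower (0.505%, against 1.98%).

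**Figure D4:**
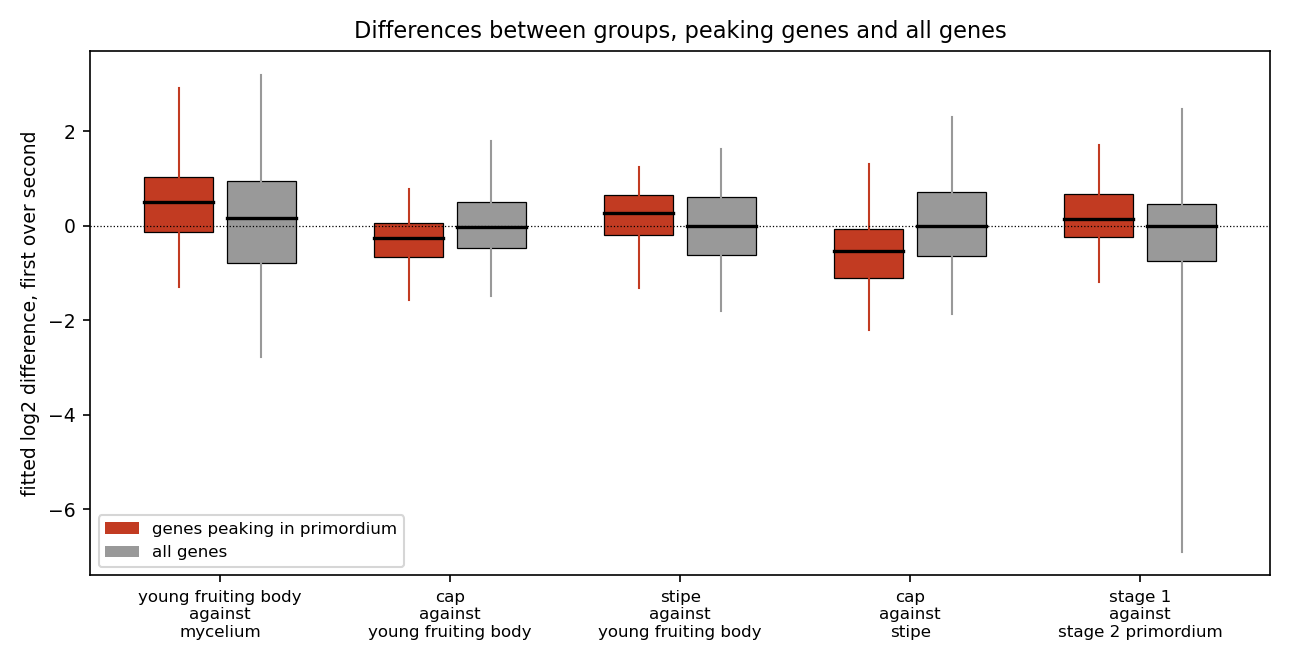
Fitted log2 differences of 5 comparisons among the groups, first over second group, for the 198 genes peaking in primordium (red, left of each pair) and for all genes tested (grey). Boxes span the 25th to the 75th percentile over genes, lines the 5th to the 95th, and black bars are medians. In cap against stipe the peaking genes have a median of -0.54, where the median of all genes is 0.

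In cap against stipe, the 2 parts of mature fruiting bodies, 15 of the 198 genes (7.58%) were lower in cap, where 5.41% of all genes were called, and 3 (1.52%) were higher, where 7.15% of all genes were called (edgeR, adjusted p under 0.05 and at least 2-fold). The median log2 difference was -0.54 for the peaking genes, against 0 for all genes, and 45 of the 198 had a positive difference, against 50.2% of all genes. The median ran from -0.60 to -0.44 when each cap or stipe library was left out, and with library total alone it was -0.34 while the median of all genes moved to 0.20. The 18 calls were 9.09% of the 198 genes, against 12.6% of all genes. Without cap replicate 1 the count was 2 higher (1.01%, against 6.6% of all genes) and 10 lower (5.05%, against 3.89%). Without cap replicate 2 it was 2 higher (1.01%, against 5.58%) and 7 lower (3.54%, against 3.22%). Without cap replicate 3 it was 2 higher (1.01%, against 5.24%) and 7 lower (3.54%, against 3.15%). Leaving out a stipe library leaves 1, so only the median is given for these fits. It was -0.59 without stipe replicate 1, against 0.07 for all genes, and -0.44 without stipe replicate 4, against 0.03. DESeq2 called 5 higher (2.59% of the 193 genes with an adjusted p), where 10.8% of all genes were called, and 28 lower (14.5%), where 8.12% of all genes were called. With only caps and stipes in the fit, 6 were higher (3.06%, against 10.6% of all genes) and 34 lower (17.3%, against 8.07%).

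Gene model 794315 was low in caps, at 2.64, 2.77 and 2.5 RPKM, against 121 and 50.7 RPKM in stipes, and the log2 difference with its SE was -5.03 ± 0.78 (edgeR, adjusted p = 0.00257). Its levels in mycelium, 177, 43.6 and 73.4 RPKM, overlapped those of stipes, and primordium stood at 1523, 433 and 1078 RPKM. Gene model 826281 had 45.2, 38.7 and 26.2 RPKM in caps, against 119 and 113 RPKM in stipes (log2 difference -1.66 ± 0.27, edgeR adjusted p = 0.00343), and its primordium values were close together at 530, 528 and 388 RPKM. In the other direction, gene model 808082 had 314, 205 and 182 RPKM in caps, against 47.2 and 52 RPKM in stipes (log2 difference 2.24 ± 0.33, edgeR adjusted p = 0.00217). Gene model 481647 had 20.5, 25.3 and 25.1 RPKM in caps, against 1.44 and 1.85 RPKM in stipes (log2 difference 3.85 ± 0.87, edgeR adjusted p = 0.0132). It was at 28.6 RPKM in young fruiting body replicate 2 but at 3.43 and 4.46 RPKM in replicates 1 and 3, and at 437, 242 and 583 RPKM in primordium. Against a single stipe library its log2 difference was 3.71 without stipe replicate 1 (edgeR adjusted p = 0.113) and 4.04 without stipe replicate 4 (adjusted p = 0.134).

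The selection did not use gene length, since a length divides out of every difference between libraries. The peaking genes were nevertheless longer, with a median of 1624 bases, against 1196 bases over all genes of the matrix. With the genes ranked by length and put in 5 bins, the genes peaking in primordium made up 0.645% of the shortest bin (20 of 3101 genes, up to 696 bases) and then 0.905%, 1.10% and 1.45%, and 2.30% of the longest bin (71 of 3093 genes, from 1941 bases). Over all genes, the primordium mean minus the average of the 4 other group means was higher in each longer bin, with medians of -0.91, -0.59, -0.39, -0.22 and 0.10 (log2). With each library's trend on gene length removed, the rule found 329 genes, of which 192 were among the 198. They then made up 2.58% of the shortest bin and 2.13% of the longest, with a median length of 1135 bases.

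**Figure D5:**
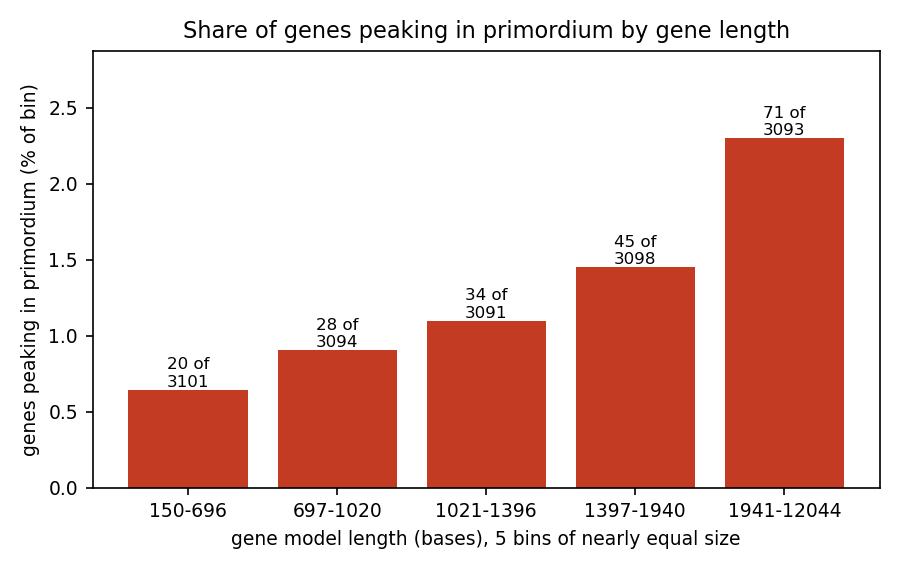
Share of genes peaking in primordium (%, bars) in 5 bins of gene model length with nearly equal numbers of genes; counts stand above the bars. The share rises from 0.645% in the shortest bin to 2.30% in the longest.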

How the data were processed

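Per the file headers, the authors deposited a table for each library with total and unique read counts, RPKM, TPM and length for 17139 gene models of the set Ricmel1, without positions; the counts are raw, and the deposited RPKM and TPM columns were not used. The deposited matrix holds log2 RPKM values of 15477 genes. These are the genes with at least 5 reads in at least 4 libraries, and recomputing them from the counts, with TMM scaling and 0.5 reads added, gave 100% of the deposited values to within 1e-06. Versions named in the submitters' processing notes are limma 3.18.13, edgeR 3.4.2 and R 3.0.2. The mapper, and the build of the genome, were not given in the sources used here.

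Tests used total read counts in edgeR 4.0.16 (R 4.3.3): TMM, filterByExpr, quasi-likelihood fits of all 14 libraries with 5 groups (9 residual degrees of freedom), or 6 with primordium stages split (8), and Benjamini-Hochberg adjustment over all genes. A call needs an adjusted p under 0.05 and at least 2-fold. Standard errors are the log2 difference divided by the square root of F. Genes named are the 2 with the highest primordium mean, the 2 with the largest excess, those next to the threshold, and in each comparison the 2 called genes with the smallest adjusted p in each direction; the others are said to be chosen after their values were seen, except 822016 in the comparison of stages, the last of 3 called. The genes, the comparisons and this rule were chosen with earlier results of these data known. Alternatives used DESeq2 1.42.0 and limma 3.58.1.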

Additional observations from a re-analysis of the deposited data

Results flagged for a closer look

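For 3 of the 198 genes (1.52%) the fitted difference from young fruiting body was above 0 in stipe and below 0 in cap, with a call in stipe and in cap against stipe, the direct test of that difference. The same pattern was found in 0.797% of all genes tested. Opposite signs in cap and stipe with a call, in either direction, were found in 3.28% of all genes tested. Among the 198 genes that share was again 1.52%, from the same 3 genes. For these 3 genes the differences of cap from young fruiting body were not called, so their sign is not resolved. Gene model 826281 had a log2 difference from young fruiting body of -0.29 in cap (edgeR adjusted p = 0.598) and 1.38 in stipe (adjusted p = 0.0131), and of -1.66 ± 0.27 (SE) in cap against stipe (adjusted p = 0.00343). Gene model 898602 had -0.41 in cap (edgeR adjusted p = 0.62) and 1.78 in stipe (adjusted p = 0.0234), and -2.19 ± 0.41 in cap against stipe (adjusted p = 0.00659). Gene model 235819, named after its values were seen, had -0.44 in cap (edgeR adjusted p = 0.675) and 1.81 in stipe (adjusted p = 0.0493), and -2.26 ± 0.51 in cap against stipe (adjusted p = 0.0138). Its levels were 1.75, 2.39 and 2.96 RPKM in caps, 7.96 and 14.6 RPKM in stipes, and 2.86, 4 and 2.79 RPKM in young fruiting bodies. Its adjusted p in stipe lies close to the threshold of 0.05. The differences from young fruiting body share its libraries, and without stipe replicate 4 edgeR called none of these genes higher in stipe than in young fruiting body.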

How the results depend on the processing

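Of 113 alternative counts, 83 stayed within 1.5 times the main value. For named genes, 180 of 196 alternative values had the same direction and call, 16 lost the call, and 0 reversed. In the setting without the 2-fold limit on calls, called genes keep their call by construction. The number of peaking genes, 198, was 74 with library total alone, 329 with the length trend removed, 298 and 72 with an excess of 1.5 and 3 (log2), 346 without the gap and 63 with a gap of 2, where stricter limits give fewer by construction, and the cause of the others was not tested. Without the low-count filter it was 199, the added gene having at most 13 reads in any library.

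Members called in cap against stipe were 18, with 33 by DESeq2 and 40 with only these groups in the fit. The shares of all genes called were 12.6%, 18.9% and 18.7%. In stipe against young fruiting body 3 members were called, with 12 by DESeq2 and 5 with DESeq2 size factors. There the shares of all genes were 7.1%, 13.4% and 6.3%. In cap against young fruiting body 2 members were called, with 8 by DESeq2, where 3.12% and 7.41% of all genes were called. Between primordium stages 3 members were called, with 7 by DESeq2, and the share of all genes called rose too. The cause was not tested. The 8 same-numbered pairs did not deviate together (correlations -0.238 to 0.017). With the replicate number as a block, calls were 0 in cap against stipe, where 0.643% of all genes were called. In stipe against young fruiting body they were 0, as over all genes. Between primordium stages the median log2 difference of the members was -0.15 with the block, against -0.03 for all genes. Without the block it was 0.15, against -0.01. In these fits 1 stipe library has a number of its own and drops out of the estimate. The block left 36 of 45 calls in young fruiting body against mycelium (18.2%, against 22.2% of all genes).

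With each library left out, the number of peaking genes ran from 193 to 362, and calls ran from 27 to 49 in young fruiting body against mycelium, 2 to 6 in cap against young fruiting body, 0 to 15 in stipe against young fruiting body, 3 to 12 in cap against stipe and 2 to 10 between primordium stages. The shares of all genes called moved too, so these ranges do not describe the peaking genes alone. They ran from 19.2% to 25.9% in young fruiting body against mycelium and from 0.967% to 2.75% in cap against young fruiting body. Without a young fruiting body library they ran from 2.16% to 7.62% in stipe against young fruiting body. Without a cap library they ran from 8.39% to 10.5% in cap against stipe. Fits with 1 library in a group were left out of these shares. Counts of genes with stipe next highest and with young fruiting body replicate 2 highest stayed within 1.5 times under every scaling and filter run, all chosen after seeing the data. Depth limits low genes most: the rarest peaking gene had 7 reads in a primordium library.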
